A study of Mus musculus with 8 samples.

Results

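The genes described are the replication-dependent histone genes, which encode the bulk histone proteins that package newly copied DNA. They were taken from the authors' table by name, as every gene whose symbol starts with Hist1h, Hist2h, Hist3h or Hist4h and that had an FPKM above 0 in at least 1 group. Of 71 genes with such a name among 37982 in the table, 69 qualified, and Hist1h2aj and Hist1h2ba were at 0 in every group. The members comprise 6 linker histone (H1), 19 H2A, 18 H2B, 13 H3 and 13 H4 genes, and 54 of them lie in the Hist1 cluster, 11 in Hist2, 3 in Hist3 and 1 in Hist4. One H2B member, Hist3h2bb-ps, is named as a pseudogene.

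The tissue was the ventricular part of hearts from C57BL/6 pups at postnatal day 7, and its RNA was sequenced. The triple mutants (3 samples) carried altered Mkl2, Myh7 and Nkx2-5, the double mutants (3 samples) altered Mkl2 and Myh7 without the Nkx2-5 change, as known from the study, and the remaining group was wild type (2 samples). Mkl2 is a transcriptional coactivator related to myocardin, Myh7 a myosin heavy chain of the sarcomere, and Nkx2-5 a homeodomain factor of the heart. The libraries were made from total RNA, so transcripts without a poly(A) tail could be captured. The labels give neither the sex of the pups nor the nature of the alleles. The authors' file holds 1 FPKM (a fragment rate scaled to transcript length and library size) for each gene and group, so every level below is the authors' group value, with no value per sample, no replicate error and no known depth. Whether samples of different groups overlap could therefore not be seen, and differences are read from the authors' test, with a q-value (an adjusted p-value) under 0.05 as the threshold. In bulk tissue, fewer dividing cells and less histone RNA per dividing cell cannot be told apart.

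In animal cells, DNA is wound around octamers built from H2A, H2B, H3 and H4, and H1 binds the linker DNA between them. The genes described here are transcribed mainly in S phase, when the genome is copied, and most have no introns. Their mRNAs typically end in a conserved stem-loop in place of a poly(A) tail. The stem-loop is bound by SLBP, and the U7 small nuclear ribonucleoprotein directs the cut that forms the end. In mouse ventricles, heart muscle cells leave the cell cycle during the first weeks after birth, while other cells of the heart go on dividing.

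The stem-loop sets these transcripts apart from other mRNAs in sequence, so its forms are shown. A 16-base motif, with the arms GGNNCT and AGNNCC around the loop TNTN, was searched on the transcript strand in GENCODE M21 transcripts, for which all 69 members had an entry. It stood after the stop codon in 46 members. The annotated transcript end can lie far beyond it, as in Hist1h1d with 4884 bases after the motif. Whether such longer forms were present in these samples was not tested. Other annotated transcripts end near the stop codon, as in Hist1h2ak with 393 bases and a coding sequence of 390. A motif beyond such an end could not be found, so its absence there does not show that the gene lacks it. Within the last 100 bases of a transcript the motif occurred in 23 of 69 members (33.3%) and in 9 of 55378 other genes (0.0163%). The most frequent form was present in 26 members of classes H1, H2A, H2B and H3, among them Hist1h1e, Hist1h2ab and Hist1h2ae. A form with more G and C in the stem was present in 7 H4 genes, among them Hist1h4m, Hist1h4n and Hist1h4h. In the sequences below the capitals mark the arms of the stem and the lower case the loop, on the GRCm38 build.
Hist1h1e, chr13:23621782-23621797, minus strand: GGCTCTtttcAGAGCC
Hist1h2ab, chr13:23751572-23751587, plus strand: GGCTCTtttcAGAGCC
Hist2h2ac, chr3:96220418-96220433, minus strand: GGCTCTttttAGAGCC
Hist1h4m, chr13:21812129-21812144, plus strand: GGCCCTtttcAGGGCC
Hist1h4b, chr13:23757366-23757381, plus strand: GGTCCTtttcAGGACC
In each form shown, the arms are reverse complements of each other, so they can pair.

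Promoters were read from RefSeq windows of 300 bases on GRCm38.p6 (250 before the transcription start and 50 after), of which 60 members had 61. Motifs were searched on both strands. The octamer ATTTGCAT, known as a binding site of POU factors in histone promoters, occurred in 21.3% of member windows and in 1.74% of all 32851 windows. It was found in 7 of 17 H2A and 6 of 16 H2B windows and in no H1, H3 or H4 window. The CCAAT box occurred in 85.2% of member windows against 37.4% of all, and the TATA box, as TATAAA, in 55.7% against 13.6%. The string TTTGGCGC, a core of E2F sites, was in no member window and in 0.514% of all. With 61 member windows, none is near that share. Other forms of E2F sites were not searched, so this does not show that such sites are absent. No motif contains another, and a match is a description of the sequence.

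Many H2A and H2B genes start next to each other and run in opposite directions, so that a single stretch of DNA serves both as promoter. Below are the stretches between the starts of 2 such pairs and the 250 bases before the starts of 2 further genes, chosen because the results turn on their H2A or H1 gene. Each is read along the strand of the H2A or H1 gene, and capitals mark the octamer, the CCAAT box and the TATA box or their reverse complements.
Hist1h2bg to Hist1h2ae, chr13:23571221-23571399, minus strand: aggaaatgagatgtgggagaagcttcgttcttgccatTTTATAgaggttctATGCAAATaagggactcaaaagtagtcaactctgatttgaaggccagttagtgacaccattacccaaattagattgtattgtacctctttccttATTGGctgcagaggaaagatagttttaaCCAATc
Hist1h2bk to Hist1h2ah, chr13:22035644-22035820, minus strand: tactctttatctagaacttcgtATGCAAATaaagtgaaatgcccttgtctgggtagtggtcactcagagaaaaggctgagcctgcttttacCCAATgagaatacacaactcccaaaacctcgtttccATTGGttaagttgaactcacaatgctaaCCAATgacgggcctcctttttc
Before Hist1h2ab, chr13:23750838-23751087, plus strand: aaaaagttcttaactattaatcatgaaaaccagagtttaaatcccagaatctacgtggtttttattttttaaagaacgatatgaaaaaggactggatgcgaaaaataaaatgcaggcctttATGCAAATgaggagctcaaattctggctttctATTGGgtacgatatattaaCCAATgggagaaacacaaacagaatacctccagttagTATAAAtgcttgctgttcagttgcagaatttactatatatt
Before Hist1h1e, chr13:23622559-23622808, minus strand: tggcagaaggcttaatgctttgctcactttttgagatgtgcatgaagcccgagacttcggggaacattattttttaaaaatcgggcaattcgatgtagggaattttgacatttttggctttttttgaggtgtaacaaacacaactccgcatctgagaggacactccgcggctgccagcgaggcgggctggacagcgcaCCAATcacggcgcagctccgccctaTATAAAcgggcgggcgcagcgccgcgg
Hist1h2ab, Hist1h2ae and Hist1h2ah each hold an octamer, and the window of Hist1h1e holds none. In both pair stretches the octamer lies nearer the start of the H2B gene, and it is counted for both partners. The window of Hist2h2ab, a further H2A gene described below, is not shown and holds none either.

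Histone transcripts were abundant in the day 7 ventricle. The summed FPKM of the members was 7565 in triple mutants, 6980.2 in double mutants and 6669 in wild type. This is 2.34%, 2.09% and 2.01% of the summed FPKM listed for all genes in those groups. That total leaves out genes listed at 0 because the authors' tool gave no estimate, among them 6 of 7 cardiomyocyte markers. These values are therefore not shares of all RNA. The median member stood at an FPKM of 23.5 in triple mutants, 23.0 in double mutants and 20.0 in wild type. At least 100 FPKM was reached by 13 members in triple mutants, 13 in double mutants and 12 in wild type. A small number of genes carried most of the signal, with the 5 highest members holding 64.1% of it in triple mutants, 60.9% in double mutants and 62.4% in wild type.

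**Figure D1:**
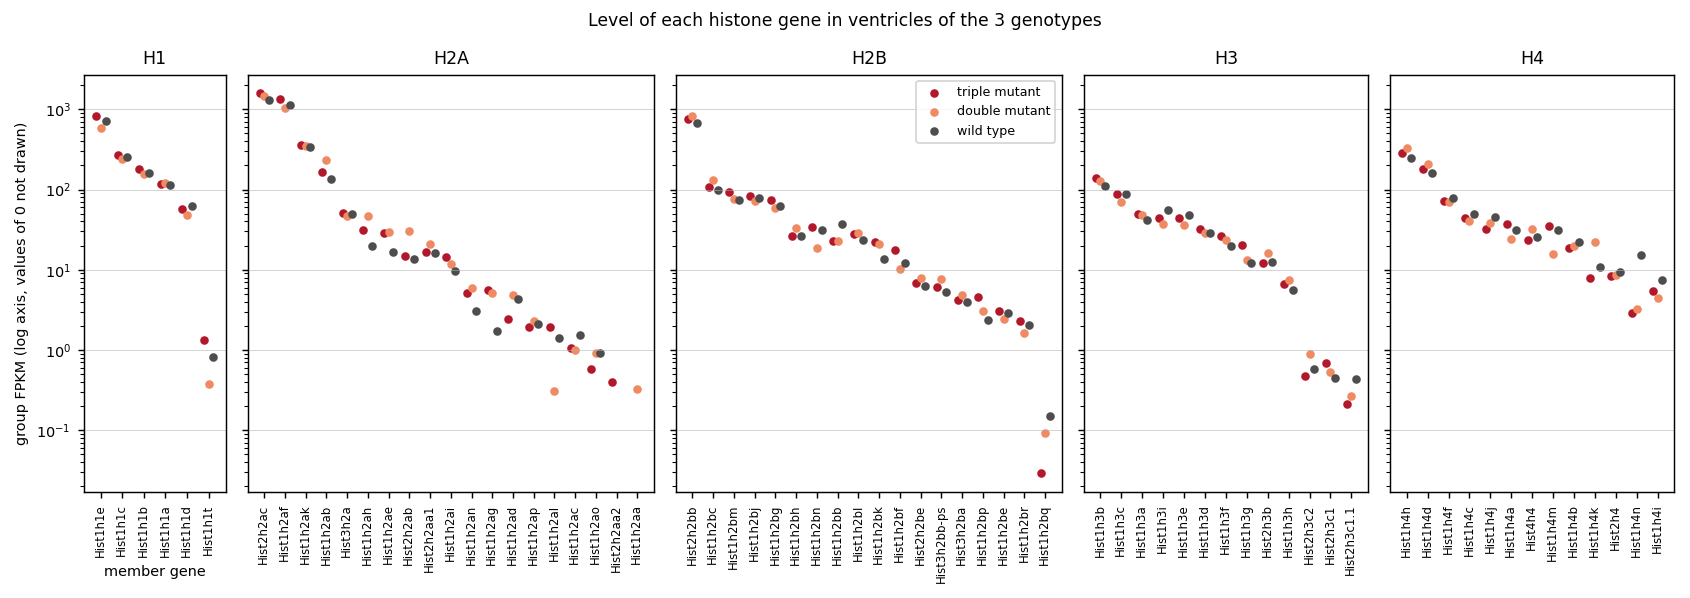
Level of each member gene as the authors' group FPKM (log axis) in triple mutant, double mutant and wild type ventricles, sorted within the classes H1, H2A, H2B, H3 and H4, with 1 point for each gene and group and values of 0 not drawn. Hist2h2ac is highest, with 1572 FPKM in triple mutants, Hist1h2bq lowest of those above 0, with 0.0295, and for most genes the 3 points lie close together compared with that span.

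Among the linker histones, which compact chromatin between nucleosomes, Hist1h1e was highest with 821 FPKM in triple mutants, 579 in double mutants and 713 in wild type. Hist1h1t, the testis-specific linker histone, stood at 1.33, 0.381 and 0.813 FPKM in triple mutants, double mutants and wild type. Hist2h2ac was the highest member of all, with 1572 FPKM in triple mutants, 1470.0 in double mutants and 1302 in wild type, followed by the H2A gene Hist1h2af with 1347, 1033 and 1121. These 2 genes held 80.6% of the H2A signal in triple mutants, 76.2% in double mutants and 79.7% in wild type. The H2B signal was led by Hist2h2bb with 747, 821 and 679.5 FPKM in the same order of groups, on a locus that the table lists with the same coordinates for Hist2h3b. Among H3 genes Hist1h3b was highest (138 in triple mutants, 126 in double mutants and 112 in wild type), and among H4 genes Hist1h4h (284, 331 and 250.2). The Hist3 cluster was led by Hist3h2a (51.7, 46.6 and 49.3), and Hist4h4, the sole Hist4 member, stood at 23.5, 32.6 and 25.8.

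**Figure D2:**
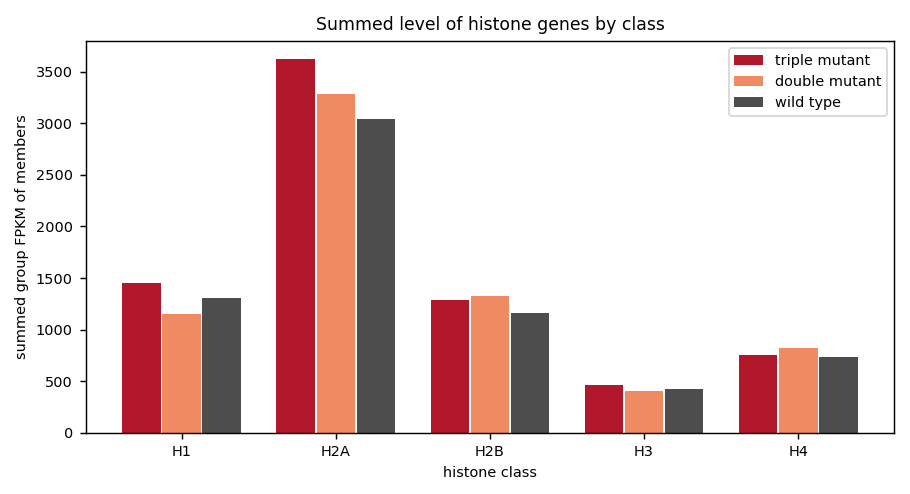
Summed authors' group FPKM of the members of each histone class in triple mutant, double mutant and wild type ventricles, drawn as bars from 0 with no error because the file has 1 value per gene and group. H2A is highest in each group (3622, 3287 and 3041), and the double mutant bar is the lowest of 3 for H1 and H3 and the highest of 3 for H2B and H4.

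Copies of a histone gene resemble each other closely, which limits how far reads can be assigned to a single copy. The 13 H4 members encode 1 identical protein, the 12 H3 members with a coding sequence encode 3 proteins, and the 18 H2A members with one encode 9. The median share of 50-base stretches of coding sequence that also occur in another member was 84.2% in H2A, 81.5% in H2B, 85.4% in H3 and 71.2% in H4, against 11.0% in H1, whose 6 proteins all differ. How the authors' counting handled reads that match several copies is not given in the sources used here. Values of single core histone genes are therefore uncertain as to the copy, and those of the H1 genes are less exposed to this.

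Few members were called in any comparison, and every call at a q-value under 0.05 was a rise. For triple mutants against wild type, 1 of 60 tested members was called (1.67%), beside 1.52% of all 12986 genes tested. For triple against double mutants, 2 of 60 members were called (3.33%), beside 1.25% of 12786 genes. For double mutants against wild type, 4 of 59 members were called (6.78%), beside 2.65% of 13034 genes. In the first comparison the share of members called is near that of all genes. No member was called lower by the authors' Cuffdiff test, beside 0.362% of all genes for triple mutants against wild type, 0.547% for triple against double mutants and 0.767% for double mutants against wild type. The absence of lower member calls is thus near the rate of all genes. Higher calls made up 1.16%, 0.704% and 1.89% of all genes in the same order of comparisons. Of tested genes whose longest transcript is under 1000 bases, 1.74%, 1.34% and 3.87% were called in that order. Higher calls numbered 18, 4 and 43 among these short genes, and lower calls 3, 11 and 3. Where the deposited statistic is read as a standard normal value, none of the member calls is kept. The 6 members called at least once are Hist1h1e, Hist1h2ab, Hist1h2ae, Hist1h2ah, Hist2h2ab and Hist1h4m.

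At an unadjusted p-value under 0.05, the members listed in the authors' deposited table numbered 14 of 60 (23.3%) for triple mutants against wild type, beside 12.1% of all genes. The same count was 14 of 60 (23.3%) for triple against double mutants, beside 8.45%, and 18 of 59 (30.5%) for double mutants against wild type, beside 16.3%, in the authors' deposited table. Of these, 3, 5 and 9 members were lower, in the same order of comparisons. At a q-value under 0.1, where the authors set their own mark, 2 of 60, 4 of 60 and 7 of 59 tested members were called. The shares of all genes called there were 2.75%, 1.98% and 4.41%, in the same order of comparisons. Falls were among the member calls, with Hist1h2bb in triple mutants against wild type, Hist1h2ab in triple against double mutants, and Hist1h4n, Hist1h4m and Hist1h2bb in double mutants against wild type. Over the tested members the median log2 fold change was 0.14 for triple mutants against wild type, 0.07 for triple against double mutants and 0.12 for double mutants against wild type, in the authors' deposited table, and the median of all genes tested was 0.00 in each. The group sums differed little, by a ratio of 1.13 for triple mutants over wild type, 1.08 for triple over double mutants and 1.05 for double mutants over wild type. The comparisons share groups with each other, so their values are given side by side and not as independent results.

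**Figure D3:**
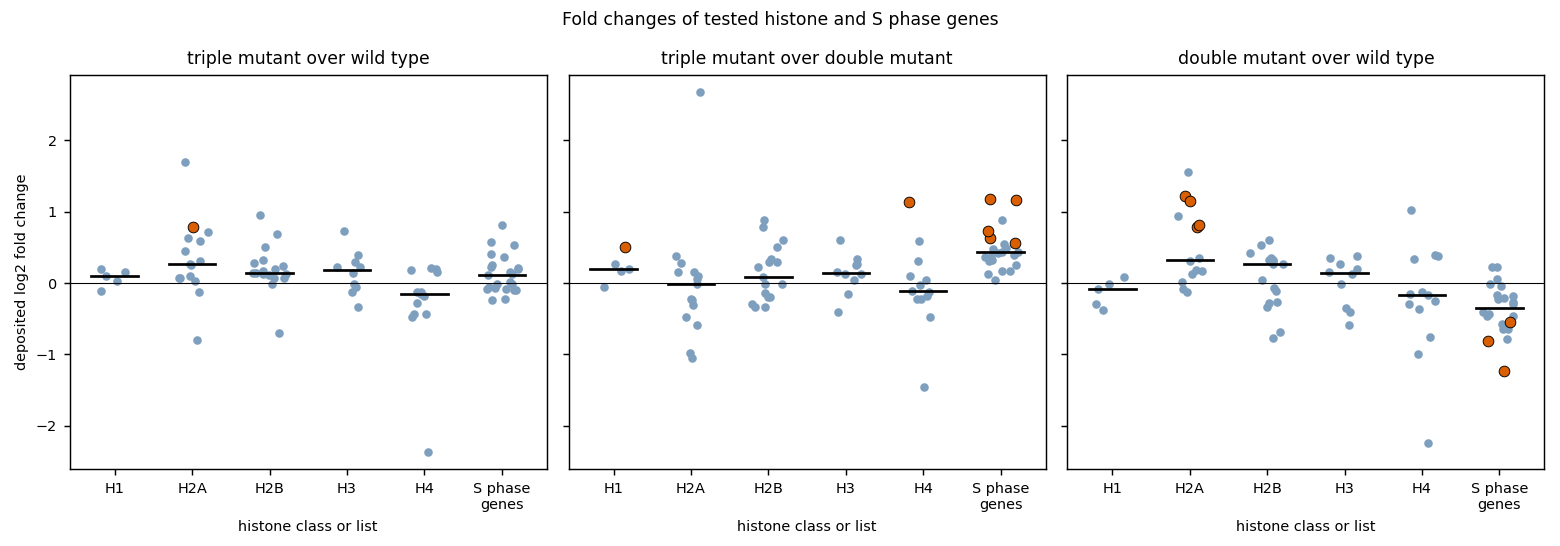
Deposited log2 fold change of each tested member by histone class, and of a list of S phase genes, in the 3 comparisons (triple mutant over wild type, triple over double mutant, double mutant over wild type), with horizontal bars at the medians and outlined orange points for genes at a q-value under 0.05. H2A holds the 4 calls of the double mutant against wild type, while the S phase genes lie above 0 against the double mutant and mostly below 0 in the double mutant against wild type.

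The comparison of double mutants with wild type shows what the Mkl2 and Myh7 changes go with in the absence of the Nkx2-5 change. All 4 called members were H2A genes, 4 of 14 tested in that class (28.6%), beside 1.89% of all genes called higher. Hist1h2ab (mm9 chr13:23842957-23843462) stood at an FPKM of 167 in triple mutants and 232 in double mutants, against 135 in wild type. The wild type value was thus the lowest and the double mutant value the highest. In the authors' deposited table it rose 1.72-fold in double mutants over wild type (log2 0.78, implied standard error 0.27, q = 0.00660). The implied standard error is the log2 fold change divided by the authors' test statistic.

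Hist1h2ah (chr13:22126982-22127512) had 30.9 FPKM in triple mutants and 46.6 in double mutants, against 20.0 in wild type. It rose 2.33-fold in double mutants over wild type in the authors' deposited table (log2 1.22, implied standard error 0.39, q = 0.00660). Hist1h2ae (chr13:23662386-23663089) had 29.4 FPKM in double mutants and 28.9 in triple mutants, against 16.7 in wild type. Both mutant groups thus stood at about the same level, above wild type. The rise of Hist1h2ae over wild type in the authors' deposited table was 1.76-fold in double mutants (log2 0.81, implied standard error 0.37, q = 0.0150) and 1.73-fold in triple mutants (log2 0.79, implied standard error 0.36, q = 0.0297).

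Hist2h2ab (chr3:96000511-96024231) had 14.7 FPKM in triple mutants and 30.4 in double mutants, against 13.7 in wild type. Its rise in double mutants over wild type was 2.22-fold in the authors' deposited table (log2 1.15, implied standard error 0.53, q = 0.0356). This locus is listed with the same coordinates for Bola1 and Gm15444, so its reads could have been split or joined, and without such loci 3 members are called. The level was high in double mutants alone, but the difference of triple from double mutants did not pass (log2 -1.05, q = 0.159, in the authors' deposited table).

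Across the H2A class, the median log2 fold change of double mutants over wild type was 0.33 over 14 tested members, 12 of them above 0, beside 49.6% of all genes tested above 0. The 2 most abundant H2A genes did not pass. Hist2h2ac had a log2 fold change of 0.18 (q = 0.699) and Hist1h2af of -0.12 (q = 0.848) in the authors' deposited table. The 4 tested H2A genes with the lowest levels did not pass, whether their folds were large or small. Hist1h2ag, at 5.08 FPKM in double mutants against 1.72 in wild type, had a log2 fold change of 1.56 (q = 0.488) in the authors' deposited table. Hist1h2an, at 5.91 against 3.08, had 0.94 (q = 0.591) in the authors' deposited table. Hist1h2ad, at 4.84 against 4.29, had 0.17 (q = 0.955), and Hist1h2ap, at 2.31 against 2.13, had 0.12 (q = 0.982), in the authors' deposited table.

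Among the called genes, Hist1h2ab, Hist1h2ae and Hist1h2ah have an octamer in the promoter window and Hist2h2ab has none, a split chosen after the values were seen. The 5 tested H2A genes with an octamer had a median log2 fold change of 0.78 in double mutants over wild type, with 4 of 5 above 0, and the 8 without one 0.33, with 7 of 8 above 0. With the octamer, Hist2h2ac (0.18) and Hist3h2a (-0.08) lay lower, by the authors' deposited table, so the octamer genes did not all behave alike. The H2B genes with an octamer (6 tested) had a median of -0.01, and those without (8 tested) of 0.08.

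The other classes had no call by the authors' Cuffdiff test in double mutants against wild type. At an unadjusted p-value under 0.05 in that test were 2 of 5 H1 and 4 of 17 H2B genes. The same held for 3 of 10 H3 and 5 of 13 H4 genes, beside 16.3% of all genes. H2B genes had a median log2 fold change of 0.27 over 17 tested members, with 10 above 0 and 7 below. Hist1h2bb lay below wild type in both mutant groups, with 23.0 FPKM in double mutants and 22.6 in triple mutants, against 36.7 in wild type. In the authors' deposited table its log2 fold change over wild type was -0.68 in double mutants (q = 0.0956) and -0.70 in triple mutants (q = 0.0841), neither of which passed. H3 genes had a median of 0.14 over 10 tested members, 6 above 0 and 4 below. H1 genes lay below wild type in 4 of 5 tested members, with a median of -0.09, and Hist1h1e at -0.30 (q = 0.346) in the authors' deposited table.

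H4 genes had a median log2 fold change of -0.17 in double mutants over wild type, with 9 of 13 below 0. The pair Hist1h4m and Hist1h4n stood apart. Hist1h4m (chr13:21903615-21904016) had 34.8 FPKM in triple mutants, 15.8 in double mutants and 31.3 in wild type, so that the double mutant alone was low. Hist1h4n (chr13:21923636-21924065) had 2.93 FPKM in triple mutants, 3.20 in double mutants and 15.1 in wild type, so that both mutant groups were low. Double mutants against wild type gave a log2 fold change of -0.99 for Hist1h4m (q = 0.0527) and -2.24 for Hist1h4n (q = 0.0620) in the authors' deposited table, both just short of the threshold. For triple mutants against wild type, Hist1h4n had -2.36 (q = 0.110) and Hist1h4m 0.15 (q = 0.908) in the authors' deposited table. The coding sequences of these 2 genes are identical in every base, so reads within them cannot be told apart. Their summed level was 37.7 FPKM in triple mutants, 19.0 in double mutants and 46.4 in wild type.

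By contrast, Hist1h4k had 8.0 FPKM in triple mutants, 22.1 in double mutants and 10.8 in wild type. The difference of double mutants from wild type (log2 1.03, q = 0.221) did not pass in the authors' deposited table, nor did that of triple from double mutants (log2 -1.46, q = 0.196). The 2 highest H4 genes, Hist1h4h and Hist1h4d, had log2 fold changes of 0.40 (q = 0.119) and 0.38 (q = 0.212) in double mutants over wild type in the authors' deposited table.

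The comparison of triple with double mutants addresses what the added Nkx2-5 change goes with. Hist1h1e (chr13:23713624-23714371), at 821 FPKM in triple mutants against 579 in double mutants, was higher in triple mutants by 1.42-fold (log2 0.50, implied standard error 0.25, q = 0.0380) in the authors' deposited table. The call is lost when q-values are adjusted within this comparison alone (q = 0.0568). Its wild type level of 713 lay between the mutant groups, and against wild type neither mutant group differed past the threshold. The H1 class as a whole had 4 of 5 tested members above 0, with a median of 0.19. Hist1h1c, a further somatic H1 gene, stood at 273 FPKM in triple mutants against 239 in double mutants (log2 0.19, q = 0.650, in the authors' deposited table). Hist1h1d stood at 57.6 against 47.9 (log2 0.27, q = 0.395, in the authors' deposited table). The summed H1 level was 1448 FPKM in triple mutants and 1147 in double mutants, with 1306 in wild type.

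Hist1h4m was the other call between the mutant groups, 2.21-fold higher in triple than in double mutants in the authors' deposited table (log2 1.14, implied standard error 0.47, q = 0.0244). Together with its identical copy Hist1h4n the log2 ratio of the summed levels was 0.99. Over the H4 class, 5 of 13 lay above 0 and the median was -0.11, so Hist1h4m did not stand for its class. The H2B gene Hist1h2bn had 34.0 FPKM in triple mutants against 18.5 in double mutants, with 31.5 in wild type (log2 0.88 for triple against double mutants, q = 0.0652, in the authors' deposited table). Hist1h2ab had the opposite sign, with a log2 fold change of -0.47 in triple against double mutants (q = 0.0868) in the authors' deposited table. Hist1h2ah likewise had -0.59 (q = 0.156) in the authors' deposited table. H2A had a median of -0.02 over 15 tested members, H2B of 0.08 over 17 and H3 of 0.14 over 10.

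For triple mutants against wild type, the comparison that the study's design describes as addressing the diseased state, Hist1h2ae was the sole call. Signs were uneven among the classes. H2A lay above 0 in 13 of 15 tested members (median 0.27), H2B in 15 of 17 (median 0.14), H3 in 6 of 10 (median 0.18) and H1 in 4 of 5 (median 0.10), while H4 lay above 0 in 4 of 13 (median -0.16). Over all members 42 of 60 (70.0%) lay above 0, beside 49.7% of all genes tested. For a single member, the implied standard error had a median of 0.36 on the log2 scale. Further from 0 but not past the threshold in the authors' deposited table were Hist1h2bp (log2 0.96, q = 0.545), Hist1h3g (log2 0.73, q = 0.156), Hist1h2ad (log2 -0.80, q = 0.616) and Hist1h4j (log2 -0.48, q = 0.318).

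The 12 pairs of H2A and H2B genes that start next to each other, with 167 to 268 bases between their loci, allow a comparison of genes with a common promoter stretch. Hist1h2ao and its partner Hist1h2bq, at 0.920 FPKM or less, and Hist1h2ac, at 1.53 or less, were tested in no comparison. The partner of Hist3h2a is Hist3h2bb-ps, named as a pseudogene. The counts of signs and the median differences include these pairs. In double mutants over wild type the fold changes of the partners had the same sign in 5 of 12 pairs. The H2A gene had the higher log2 fold change in 8 of 12, with a median difference (H2A minus H2B) of 0.52. Hist1h2ae rose (log2 0.81) while its partner Hist1h2bg, at 59.5 FPKM in double mutants and 62.2 in wild type, stood at -0.07 (q = 0.955) in the authors' deposited table. Hist1h2bk, the partner of Hist1h2ah, had 20.8 FPKM in double mutants and 13.6 in wild type, a log2 fold change of 0.61 (q = 0.264) in the authors' deposited table. Both genes of that pair thus lay above wild type, although the H2A gene alone passed, and the difference between partners was not tested.

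In triple mutants over wild type the partners had the same sign in 9 of 12 pairs, with a median difference of -0.05. In triple over double mutants they did so in 3 of 12, with a median difference of -0.20. Levels within a pair were often far apart, as for Hist2h2ac (1572 FPKM in triple mutants, 1470.0 in double mutants and 1302 in wild type) and its partner Hist2h2be (6.84, 7.79 and 6.21). The reverse held for Hist1h2ac (1.07, 0.998 and 1.53) and its partner Hist1h2bc (107, 132 and 98.1).

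**Figure D4:**
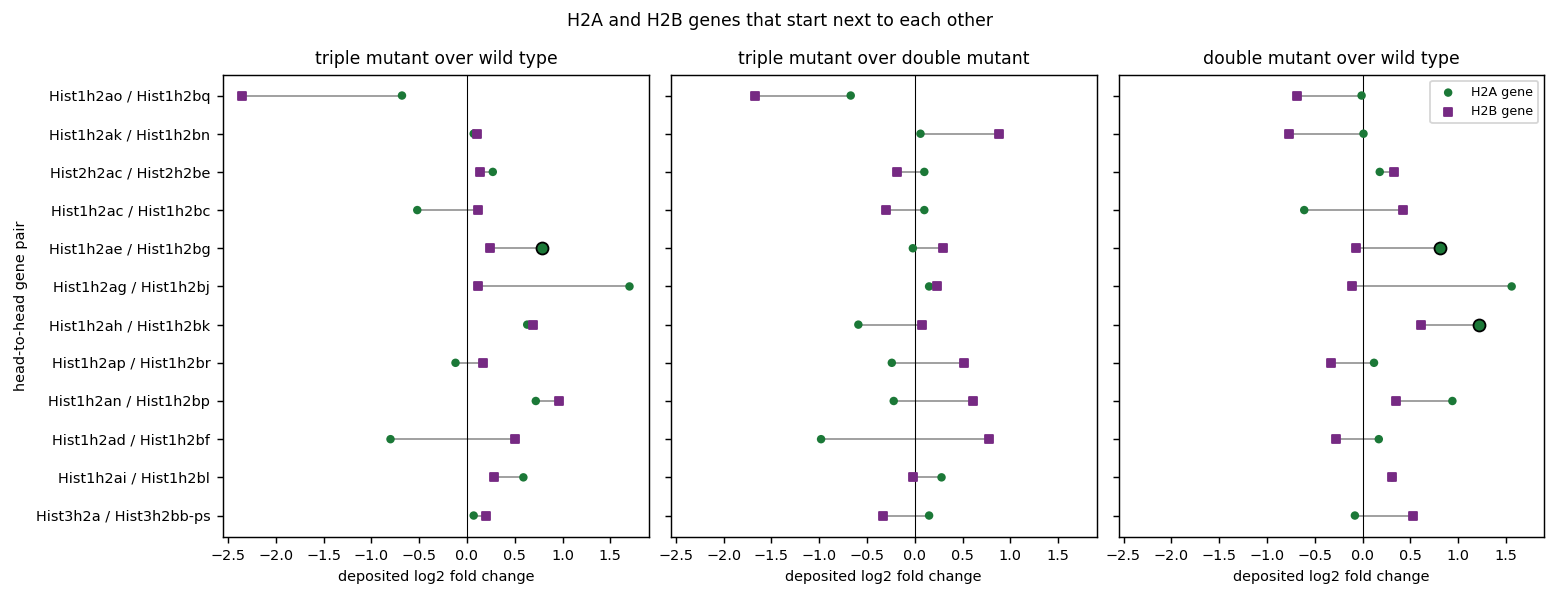
Deposited log2 fold change of the H2A gene (green circle) and the H2B gene (purple square) in each of 12 pairs that start next to each other, in the 3 comparisons on a common axis, with outlined points at a q-value under 0.05. In double mutants over wild type Hist1h2ae and Hist1h2ah lie to the right of their H2B partners, and the symbols of Hist1h2ai and Hist1h2bl coincide at 0.31.

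Genes that act in S phase, when histone genes are transcribed, are given beside the histone genes. Of 25 such genes 23 could be used, the other 2 being marked as having too many fragments. In triple over double mutants all 23 lay above 0, beside 49.8% of all genes tested. Their median log2 fold change was 0.43, and 5 were called higher (21.7%), beside 0.704% of all genes. Those 5 were the cyclin Ccna2 (log2 0.63, q = 0.0244), the ribonucleotide reductase subunit Rrm2 (log2 0.56, q = 0.0321), the thymidylate synthase Tyms (log2 0.73, q = 0.0184), the primase subunit Prim1 (log2 1.18, q = 0.0214) and the replication licensing factor Cdc6 (log2 1.16, q = 0.00660), in the authors' deposited table. In double mutants over wild type 19 of 22 tested S phase genes lay below 0, with a median of -0.35. Of them 3 were called lower (13.6%), beside 0.767% of all genes. The 3 were Rrm2 (log2 -0.54, q = 0.0356), Tyms (log2 -0.81, q = 0.00660) and Cdc6 (log2 -1.23, q = 0.0114) in the authors' deposited table. No S phase gene was called by the authors' Cuffdiff test in triple mutants against wild type, where 13 lay above 0 and 10 below. The median there was 0.11, and 2 of 23 had an unadjusted p-value under 0.05 in that test, beside 12.1% of all genes.

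The summed FPKM of the S phase genes was 429.7 in triple mutants, 315 in double mutants and 393 in wild type, so the double mutants were lowest. The summed histone level (7565, 6980.2 and 6669) did not have that order, since wild type was lowest. The clusters differed in this. The 54 Hist1 members summed to 5099.5, 4513 and 4544 FPKM in triple mutants, double mutants and wild type, so double mutants were slightly the lowest. The 11 Hist2 members summed to 2379, 2376 and 2041, with wild type lowest. Hist2h2ac and Hist2h2bb held 97.5%, 96.4% and 97.1% of that sum, and neither was called in any comparison. Of the histone classes, H1 and H3 were lowest in double mutants, as the S phase genes were, whereas H2A, H2B and H4 were lowest in wild type. The 5 usable proliferation markers had summed levels of 195 FPKM in triple mutants, 133 in double mutants and 162 in wild type. Of these, Ccnb1, the cyclin of mitotic entry, was called higher in triple than in double mutants. The part of these genes in the histone differences was not tested.

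Of 18 genes that transcribe or process histone mRNA, few differed. Slbp, which encodes the stem-loop binding protein, had 21.7 FPKM in triple mutants, 21.9 in double mutants and 19.4 in wild type (q = 0.885 for triple and 0.879 for double mutants against wild type, in the authors' deposited table). Npat, the coactivator of histone gene transcription, had 8.73, 6.86 and 7.21 FPKM in the same order of groups, with no call. Lsm11, a protein of the U7 small nuclear ribonucleoprotein, had 2.85 FPKM in triple mutants and 2.84 in double mutants, against 4.47 in wild type. It fell in both mutant groups in the authors' deposited table, with log2 fold changes over wild type of -0.65 in triple mutants (q = 0.0114) and -0.66 in double mutants (q = 0.0271). Lsm10, its partner in the same particle, had 4.72, 7.71 and 6.89 FPKM and did not pass. Snrpd3, a core protein of small nuclear ribonucleoproteins, had 13.7 FPKM in triple mutants, 10.4 in double mutants and 6.98 in wild type, and rose in triple mutants over wild type (log2 0.97, q = 0.0321, in the authors' deposited table).

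Replacement variants, which are made outside S phase from polyadenylated mRNA for the most part, gave 1 call among 11 genes. H2afj, an H2A variant, had 20.6 FPKM in triple mutants, 25.6 in double mutants and 17.0 in wild type, and rose in double mutants over wild type (log2 0.60, q = 0.0114, in the authors' deposited table). H1f0, the replacement linker histone, had 274, 236 and 216 FPKM, and H3f3b, which encodes H3.3, had 234, 213 and 236 in triple mutants, double mutants and wild type, with no call for either. The variants had median log2 fold changes of 0.28 in triple mutants over wild type, 0.15 in triple over double mutants and 0.07 in double mutants over wild type. None of 18 histone chaperone and assembly genes was called by the authors' Cuffdiff test, with 5, 2 and 1 of them at an unadjusted p-value under 0.05 in the same order of comparisons. The shares of all genes at that p-value were 12.1%, 8.45% and 16.3%.

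The groups also differed in features that are not histone genes. The summed FPKM of 4 Y-linked genes was 54.2 in triple mutants, 73.7 in double mutants and 21.9 in wild type, with 2 of the 4 called higher in double mutants than in wild type. In triple mutants over wild type all 4 lay above 0, and 1 of them, Ddx3y, was called higher (log2 1.06, q = 0.00660, in the authors' deposited table). Marker sums for other cell types were closer. They came to 353, 373 and 341 for 10 erythroid genes, 531, 597 and 619.6 for 7 endothelial genes, 439, 539 and 474 for 5 fibroblast genes and 34.9, 36.0 and 37.0 for 6 macrophage genes, in triple mutants, double mutants and wild type. No gene of those 4 lists was called by the authors' Cuffdiff test, and at most 3 of a list had an unadjusted p-value under 0.05 in any comparison. Those were 3 of 5 fibroblast genes in triple against double mutants, beside 8.45% of all genes. All 5 lay below 0 there (median log2 fold change -0.27), and all 5 above 0 in double mutants over wild type (median 0.10). In triple mutants over wild type 6 of 7 endothelial genes lay below 0 (median -0.26), as did 3 of 6 macrophage genes. The erythroid factors Gata1, Klf1 and Hemgn were at 0 in at least 1 group and at most 0.281 FPKM in any. Of 7 cardiomyocyte markers 6 are listed at 0 because the authors' tool gave no estimate at their fragment number. This leaves Nkx2-5 at 55.2, 53.1 and 43.6 FPKM to check the tissue label. Nkx2-5 is itself altered in the triple mutants, so it is no neutral measure of heart muscle cells across the groups. Its level in triple against double mutants did not pass the threshold (log2 0.06, q = 0.955, in the authors' deposited table). The part of sex, cell makeup and RNA quality in the histone differences was not tested.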

How the data were processed

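Per the labels' protocols, stranded libraries were prepared from DNase-treated total RNA of ventricles. The submitters' processing notes name CASAVA (1.8), STAR (2.5.2), Cufflinks (2.2.1), Cuffdiff (2.2.1) and the mm9 build. The sources used here do not give the annotation, the normalization settings or how many libraries entered each test. The file that the authors deposited is Cuffdiff output by gene, with 1 FPKM per gene and group. For each of 3 comparisons the authors also give a log2 fold change, the Cuffdiff statistic (a score), a p-value and a q-value. FPKM values keep no depth, so no depth per sample and no counting interval can be given. It is not stated whether the samples of a group came from separate litters, so the p-values may measure partly technical spread.

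Recomputing showed that the deposited log2 values are log2 ratios of group FPKM (largest difference 5e-05). The deposited q-values come from Benjamini-Hochberg adjustment of the 3 comparisons' tested genes in 1 family (largest difference 5.3e-07). The lowest p-value is 5e-05, so genes tie there at q = 0.00660. No new test across samples could be run. Members and gene lists were chosen with earlier results of these data known, and the lists are described by counts and medians with no test. Named members are those called in any comparison, the 6 highest, the highest of each class and cluster, and per comparison the 5 largest rises and falls at an FPKM of 1 or more in either group and above 0 in both, 29 in all. Beyond these, a few members were chosen after their values were seen, such as the partners in pairs, Hist1h1c, Hist1h1d, Hist1h2ap and Hist1h4d. Of the tested members, 59 were tested in every comparison, and 9 members in none. No member carries the mark for too many fragments, and 12 lie on a locus listed with the same coordinates for another gene. The adjustment and medians were checked on simulated data.

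Loci are printed in mm9, 1-based. Transcript sequence came from GENCODE M21 (GRCm38), where 57 members matched by Ensembl ID and 12 by symbol, 65 of them with a coding sequence. Promoters came from RefSeq (GRCm38.p6). Scripts used Python 3.11.15, pandas 2.3.3, numpy 2.4.6, scipy 1.17.1 and biopython 1.88.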

Additional observations from a re-analysis of the deposited data

How the results depend on the processing

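With 1 value per gene and group, no sample could be left out and depth could not be weighed. No paired analysis was possible because the columns carry group values and no sample numbers. At the q-value of 0.1 that the authors mark, 2 members are called for triple mutants against wild type, 4 for triple against double mutants and 7 for double mutants against wild type. With q-values adjusted within the comparison, triple against double mutants keeps 1 member, Hist1h4m, as Hist1h1e stands at q = 0.0568, and for double mutants against wild type Hist1h4m (q = 0.0359) and Hist1h4n (q = 0.0430) join as lower. An alternative chosen after seeing the data reads the deposited statistic as a standard normal value, since the deposited p-values are smaller than that. Adjusted within each comparison, it calls 0 members in each, and 4, 4 and 9 of all genes in place of 198, 160 and 346. By this reading 2 of 60, 2 of 60 and 6 of 59 members (3.33%, 3.33% and 10.2%) had an unadjusted p under 0.05. The shares of all genes were 1.39%, 1.14% and 2.55%, in the same order of comparisons. The median log2 fold change of double mutants over wild type, 0.04 over the members above 0 in both groups, was -0.02 in the Hist1 cluster alone. The other 20 of 21 alternatives for the median and all 12 for the summed FPKM kept the direction and stayed within 0.1 on the log2 scale or 1.1-fold. The cause of these differences was not tested.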

Other observations

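Other short RNAs that lack a poly(A) tail, which total RNA libraries also capture, are given here with their directions. Of small nucleolar and Cajal body RNAs above 0 in both groups, 13 of 15 lay below 0 in triple mutants over wild type, with a median log2 fold change of -0.42. In triple over double mutants 13 of 15 lay below 0 as well, with a median of -0.69, and in double mutants over wild type 9 of 14 lay above 0, with a median of 0.14. Scarna13, a Cajal body RNA, had 136 FPKM in triple mutants, 328 in double mutants and 152 in wild type. It was called lower in triple than in double mutants (log2 -1.27) and higher in double mutants than in wild type (log2 1.11) in the authors' deposited table. Tested genes of all kinds whose longest transcript is under 1000 bases had medians of 0.06, -0.02 and 0.06 in triple mutants over wild type, triple over double mutants and double mutants over wild type.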
